A study of Homo sapiens with 12 samples.

Results

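The genes described here are 10 genes of the FGF, VEGF and PDGF growth factor systems, among 17687 genes with a named probe set on the array. They were taken by gene symbol, FGFBP1, FGF2, FGFR1, FGFR2, FGFR3, VEGFA, VEGFB, VEGFC, PDGFA and PDGFB, and each had 1 probe set. RNA was measured on 12 whole-transcript arrays of MCF-10A, an immortal line of human mammary epithelium that forms no tumours. The HER2 cultures (4 arrays) carried HER2 L755S, which alters the kinase part of this growth factor receptor, and the PIK3CA cultures (4 arrays) carried PIK3CA E545K, which alters the helical domain of the catalytic chain of PI3-kinase. The co-cultures (4 arrays) held both mutant lines together and were taken at about 75% HER2-mutant and 25% PIK3CA-mutant cells, as measured by droplet digital PCR. All 3 groups grew with EGF at a physiologic level, with no treatment named, and were harvested between day 7 and day 14. The labels name 1 isogenic line per genotype, and MCF-10A without a mutation was not analysed here. Probe sets for ERBB2, the HER2 gene, and for PIK3CA were not used here, so the genotypes were not checked against signal. A difference between the lines therefore does not say which line moved, and mutation, line and harvest day cannot be told apart. The 4 arrays of a group are cultures of the same line, so the errors below rest on spread between cultures, not between lines. Standard errors (SE) are pooled over the 3 groups and moderated by limma toward a trend over all genes. They are thus not the spread of a single gene alone.

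Fibroblast growth factors act through receptor tyrosine kinases of the FGFR family, with heparan sulfate as a cofactor. FGFBP1 is a secreted carrier that releases FGF2 from heparan sulfate in the matrix. VEGFA, VEGFB and VEGFC signal mainly to endothelial receptors, with the neuropilins as co-receptors, and VEGFA is a known target of hypoxia-inducible factors. PDGF chains A and B form dimers that act on PDGFRA and PDGFRB, receptors of fibroblasts and other mesenchymal cells. Epithelial cells commonly express the b forms of FGFR2 and FGFR3, and secrete VEGF and PDGF ligands that act on neighbouring stroma.

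Signals are on the log2 scale of the deposited table, with array medians of 6.41 to 6.49. The 95th percentile of the negative control probe sets, 6.32 to 7.12 on single arrays, served as the background level, and a group mean under its group's level is called near background. Its mean was 6.96 in the HER2 cultures, 6.36 in the PIK3CA cultures and 6.53 in the co-cultures. All 7 measured breast epithelial markers (EPCAM, CDH1, KRT5, KRT14, KRT8, KRT18 and ITGA6, of 9 listed) were above background in each group. None of the 9 endothelial markers were, with summed linear signals of 258 to 318, 222 to 255 and 232 to 252 in the HER2, PIK3CA and co-cultures. Of 8 measured fibroblast markers, LUM, THY1, PDGFRA and PDGFRB were near background in all groups. Those above it were 2 in the HER2 cultures, 4 in the PIK3CA cultures and 3 in the co-cultures, with summed signals of 2000 to 2590, 2700 to 3240 and 2610 to 3670. Within that list DCN was higher by 3.62 and FAP differed by -5.95 (-4.21 with the HER2 level taken at background) in the HER2 cultures against the PIK3CA cultures, and their part in the results was not tested.

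Of the 10 genes, 9 passed the filter on low signal. FGFR1 did not, and FGF2, FGFR3 and PDGFB were near background in all 3 groups. FGFBP1 and VEGFC were near background in the HER2 cultures only. FGFBP1 was above the filter's limit on 2 of 4 HER2 arrays and FGF2 on 1 of 4, against 4 of 4 PIK3CA arrays for both. FGFR2, VEGFA, VEGFB and PDGFA were above background on every array.

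**Figure D1:**
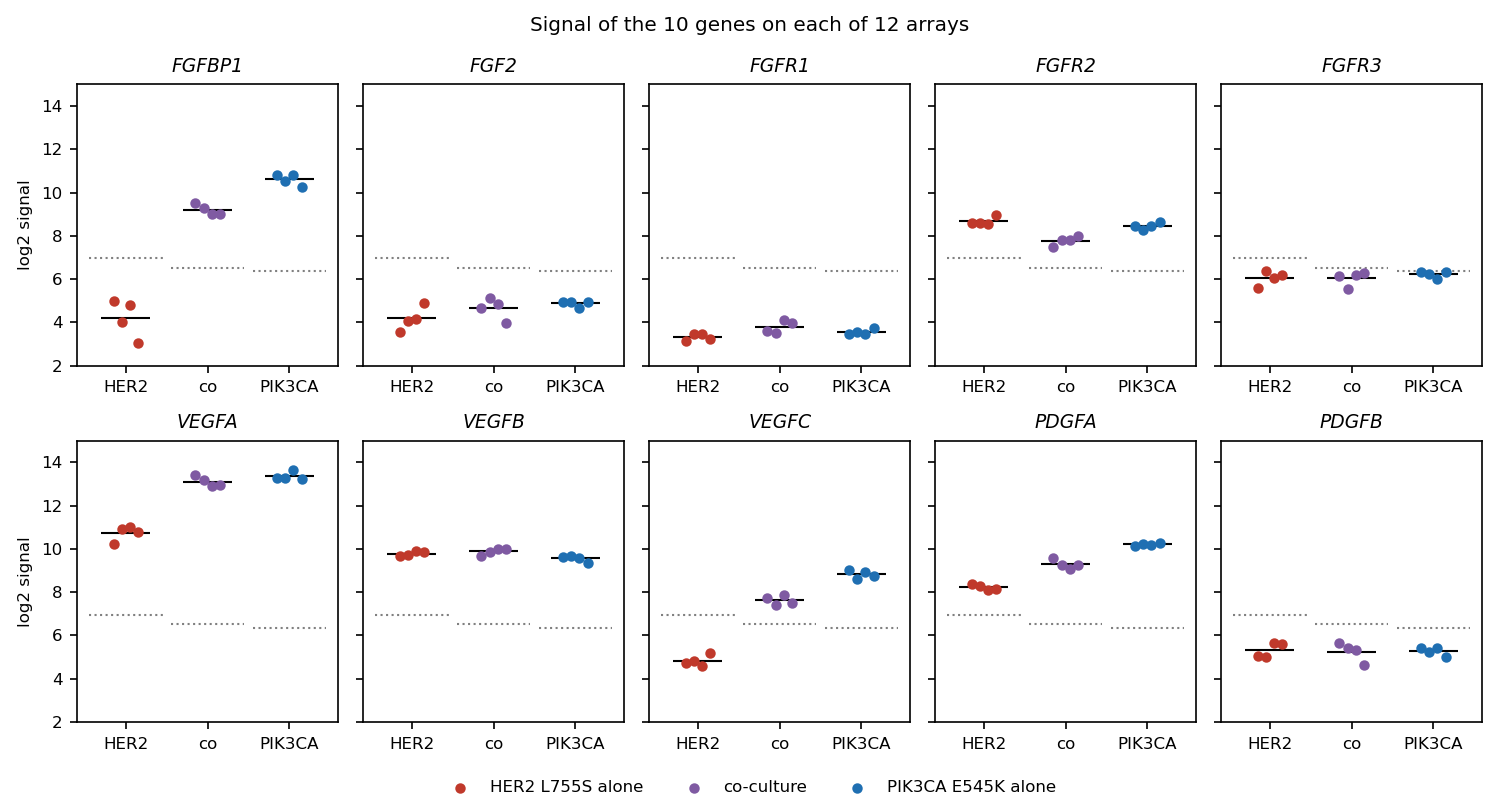
Log2 signal (vertical axis) of each of the 10 genes in the HER2 cultures, the co-cultures (co) and the PIK3CA cultures, with 1 point per array, a bar at the group mean and a dotted line at the mean background level of the group. FGFBP1, VEGFC, VEGFA and PDGFA are lowest in the HER2 cultures, FGFR2 is lowest in the co-cultures, and FGF2, FGFR1, FGFR3 and PDGFB lie under the dotted lines.

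The first comparison, between the single cultures, asked which of these genes separated the HER2 line from the PIK3CA line. The secreted factors FGFBP1, VEGFC, VEGFA and PDGFA were far lower in the HER2 cultures, with differences of -6.40 to -1.98 on the log2 scale. The receptor genes FGFR2 and FGFR3 and the ligand genes VEGFB and PDGFB did not pass the threshold. By limma at an adjusted p under 0.05, 5 of the 9 tested genes were lower and 0 were higher, where 29.5% of all genes tested were lower and 30% higher. The median difference of the 9 was -0.70, beside 0.05 over all genes. That median is the value of FGF2, which was near background in all groups. As members that are high in 1 group pass the filter through that group, these counts describe the genes and support nothing further.

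FGFBP1 differed most between the lines. Its signals were 5.01, 4.01, 4.82 and 3.04 in the HER2 cultures and 10.83, 10.54, 10.84 and 10.27 in the PIK3CA cultures. The groups did not overlap, and the HER2 arrays were all under their own background level. Means were 4.22 ± 0.90 and 10.62 ± 0.27 (SD, n = 4 each), a difference of -6.40 ± 0.28 (SE, limma adjusted p 3.6e-15). Because the HER2 level is only a bound, taken as background where a signal was under it, FGFBP1 signal was at least 12.6-fold higher in the PIK3CA cultures.

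VEGFC, the ligand best known for the growth of lymphatic vessels, followed the same order. It was measured at 4.71, 4.80, 4.58 and 5.20 in the HER2 cultures, all under background, and at 9.04, 8.61, 8.93 and 8.76 in the PIK3CA cultures. The difference was -4.01 ± 0.17 (SE, limma adjusted p 1.14e-15), and the PIK3CA level was at least 3.66-fold higher. VEGFA, the main angiogenic ligand, was bright in both lines. Its signals were 10.21, 10.91, 11.00 and 10.79 in the HER2 cultures and 13.28, 13.26, 13.64 and 13.22 in the PIK3CA cultures. VEGFA thus differed by -2.62 ± 0.14 (SE, limma adjusted p 1.76e-13), a 6.16-fold lower signal in the HER2 cultures with no overlap of arrays.

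PDGFA, the A chain of PDGF, had the least spread of the 4. It stood at 8.39, 8.28, 8.11 and 8.13 in the HER2 cultures and at 10.12, 10.24, 10.19 and 10.26 in the PIK3CA cultures. This 3.93-fold difference (-1.98 ± 0.12, SE, limma adjusted p 2.19e-12) again left a gap between the groups. Arrays of the lines did not overlap, with the HER2 cultures lower, for these 4 genes and for 26.6% of all genes tested.

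The ligands VEGFB and PDGFB showed no such order. VEGFB, a ligand of FLT1, was 9.65, 9.70, 9.91 and 9.88 in the HER2 cultures and 9.64, 9.66, 9.59 and 9.37 in the PIK3CA cultures, with overlapping arrays. Its difference of 0.22 had a 95% interval from -0.02 to 0.46 (limma adjusted p 0.115). It passed after quantile normalization (0.29, adjusted p 0.0352), in a range of adjusted p from 0.0352 to 1 over its alternatives. PDGFB, the B chain, ran from 5.01 to 5.64 and from 5.01 to 5.43, under background throughout, with a difference of 0.05 (95% interval -0.37 to 0.48). FGF2, the ligand that FGFBP1 carries, was 3.58, 4.07, 4.18 and 4.90 in the HER2 cultures and 4.96, 4.95, 4.68 and 4.96 in the PIK3CA cultures. It passed the threshold at -0.70 ± 0.24 (SE, limma adjusted p 0.0131), but with overlapping arrays, and with all of them under background no fold is given. Without the HER2 culture replicate 1 the FGF2 call was lost (-0.50, adjusted p 0.069), as it was against a tested margin of 0.5 (adjusted p 0.528). Its adjusted p ran from 0.000657 to 0.528 over the alternatives.

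Of the receptor genes FGFR1, FGFR2 and FGFR3, FGFR2 alone was above background. FGFR2 gave 8.61, 8.61, 8.53 and 8.97 in the HER2 cultures and 8.48, 8.27, 8.45 and 8.66 in the PIK3CA cultures. The difference of 0.21 had a 95% interval from -0.08 to 0.51 (limma adjusted p 0.211), and the arrays overlapped. FGFR3, a further receptor gene, gave 5.592, 6.393, 6.054 and 6.213 in the HER2 cultures and 6.344, 6.228, 5.998 and 6.335 in the PIK3CA cultures, again with overlap. Its difference was -0.16 (95% interval -0.56 to 0.23). FGFR1, a receptor typical of mesenchymal cells, ran from 3.16 to 3.47 and from 3.45 to 3.76, close to the negative control medians of 3.39 to 3.79. Without the filter its difference was -0.22 (limma adjusted p 0.274). A probe set reads the gene as a whole here, so the b and c forms of the receptors were not told apart.

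**Figure D2:**
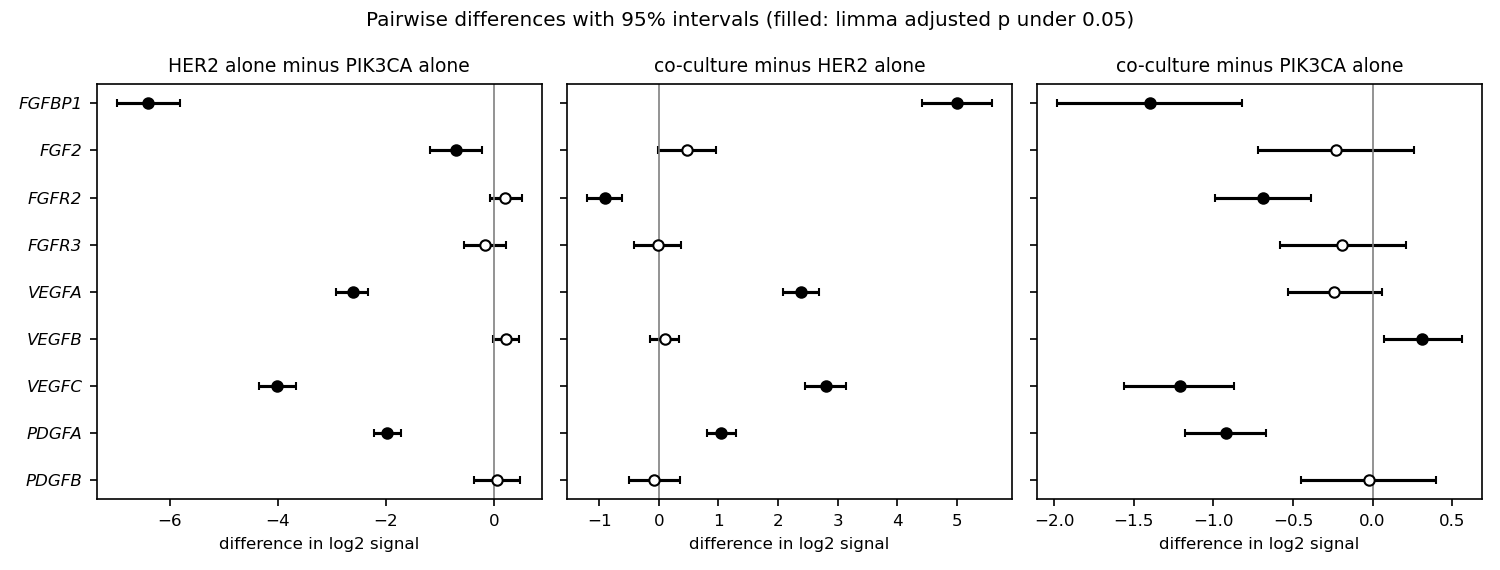
Differences in log2 signal (horizontal axis) for the 9 tested genes in the 3 pairwise comparisons, with 95% intervals from limma. Filled points passed an adjusted p of 0.05 over all genes, and the horizontal scale differs between panels. FGFBP1, VEGFC, VEGFA and PDGFA are at -6.40, -4.01, -2.62 and -1.98 in the left panel, and FGFR2 is the 1 gene under 0 and filled in both other panels.

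Promoter sequence is shown for FGFBP1, VEGFC and PDGFA, 3 of the 4 secreted factors that were lower in the HER2 cultures without overlap of arrays. VEGFA, the other, had no entry in the RefSeq table of build GRCh38.p14, where 7 of the 10 genes had an entry. FGF2, also lower past the threshold but near background, had an entry and is not shown. The stretches are the 250 bases before the annotated start, all on the minus strand, at chr4:15938741-15938990 for FGFBP1, chr4:176792923-176793172 for VEGFC and chr7:520227-520476 for PDGFA. PDGFA has 4 entries, of which the one listed first is given. Capitals mark matches to GGGCGG, the GC box, on either strand.
FGFBP1: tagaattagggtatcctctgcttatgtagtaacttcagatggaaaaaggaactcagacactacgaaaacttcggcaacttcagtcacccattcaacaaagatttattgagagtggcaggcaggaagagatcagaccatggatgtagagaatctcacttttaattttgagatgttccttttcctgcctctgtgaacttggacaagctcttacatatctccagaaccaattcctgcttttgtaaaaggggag
VEGFC: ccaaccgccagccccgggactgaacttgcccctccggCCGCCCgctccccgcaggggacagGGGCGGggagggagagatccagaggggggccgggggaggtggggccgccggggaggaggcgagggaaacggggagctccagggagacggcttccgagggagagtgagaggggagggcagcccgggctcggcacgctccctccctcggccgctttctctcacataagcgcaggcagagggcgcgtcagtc
PDGFA: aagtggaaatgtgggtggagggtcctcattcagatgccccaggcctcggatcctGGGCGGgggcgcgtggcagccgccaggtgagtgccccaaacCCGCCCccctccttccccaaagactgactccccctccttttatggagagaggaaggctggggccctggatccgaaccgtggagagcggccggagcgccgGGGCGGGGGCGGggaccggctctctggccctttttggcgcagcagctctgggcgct
The motifs searched on both strands were the GC box, the AP-1 site TGANTCA, the HIF site core ACGTG, the ETS core CCGGAA and the TATA box TATAAA. The GC box matched 2 times in the VEGFC stretch and 4 times in the PDGFA stretch, with no overlap with another motif, and 0 times in that of FGFBP1. It occurs in 42.6% of 35116 promoter stretches of this length. The other motifs had 0 matches in these 3 stretches, and occur in 6.57% (AP-1), 18.5% (HIF core), 14.5% (ETS core) and 10.7% (TATA box) of all stretches. The 3 stretches were unlike in base composition, with 40.8% G and C in FGFBP1, 74% in VEGFC and 68.8% in PDGFA, around a median of 58% over all stretches. None of the motifs searched was thus present in all 3.

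The co-culture against the HER2 culture asked how the mixture differed from its larger component. FGFBP1, VEGFC, VEGFA and PDGFA were all higher in the co-culture, and FGFR2 was lower. By limma, 4 of the 9 genes were higher and 1 lower, where 24.9% of all genes were higher and 26% lower. The median difference was 0.47, beside -0.05 over all genes. That median is the value of FGF2, which was near background and did not pass. In a mixed culture, fewer cells of a line and less RNA per cell cannot be told apart.

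FGFBP1 signals in the co-cultures were 9.52, 9.31, 9.02 and 9.02, all far above the HER2 arrays. The difference was 5.00 ± 0.28 (SE, limma adjusted p 6.15e-13), and the co-culture level at least 4.77-fold higher. VEGFC, at 7.73, 7.41, 7.86 and 7.48, was higher by 2.80 ± 0.17 (SE, limma adjusted p 1.56e-12), at least 1.58-fold. Both genes were thus above background in the mixture and under it in the HER2 line.

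VEGFA gave 13.41, 13.19, 12.89 and 12.98 in the co-cultures and was 5.23-fold higher than in the HER2 cultures (2.39 ± 0.14, SE, limma adjusted p 1.75e-12). PDGFA gave 9.56, 9.25, 9.07 and 9.24, a 2.07-fold increase (1.05 ± 0.12, SE, limma adjusted p 1.69e-07). For all 4 secreted factors the lowest co-culture array was above the highest HER2 array, as for 22.1% of all genes tested.

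FGFR2 went the other way. Its co-culture signals of 7.48, 7.79, 7.83 and 7.99 were all under the lowest HER2 array. The difference was -0.91 ± 0.14 (SE, limma adjusted p 1.39e-05), a 1.87-fold lower signal, and 22.3% of all genes had co-culture arrays wholly under the HER2 arrays. VEGFB gave 9.680, 9.847, 9.995 and 10.007, a difference of 0.10 (95% interval -0.14 to 0.34). FGF2 gave 4.65, 5.11, 4.87 and 3.99, near background, with a difference of 0.47 (limma adjusted p 0.0998). That value passed when HER2 culture replicate 4 (0.71, adjusted p 0.00839) or co-culture replicate 4 (0.70, 0.0147) was left out and with array weights (0.59, 0.0337), with adjusted p up to 1 over its alternatives. FGFR3 (5.53 to 6.30) and PDGFB (4.63 to 5.65) differed by -0.02 (-0.42 to 0.37) and -0.08 (-0.50 to 0.35). FGFR1 (3.49 to 4.11) differed by 0.45 without the filter (limma adjusted p 0.0217), at a level near background in both groups.

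The co-culture against the PIK3CA culture asked how it differed from its smaller component. FGFBP1, VEGFC, PDGFA and FGFR2 were lower in the co-culture, VEGFA did not pass the threshold, and VEGFB was slightly higher. By limma, 4 of the 9 genes were lower and 1 higher, where 14.6% of all genes were lower and 11.1% higher. The median difference was -0.24, beside -0.02 over all genes. This comparison shares the co-culture arrays with the one before and the PIK3CA arrays with the first.

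FGFBP1 differed by -1.40 ± 0.28 (SE, limma adjusted p 0.000606), 2.64-fold lower in the co-culture, and VEGFC by -1.21 ± 0.17 (7.48e-06), 2.32-fold lower. PDGFA differed by -0.92 ± 0.12 (SE, limma adjusted p 5.57e-06), 1.9-fold lower, and FGFR2 by -0.69 ± 0.14 (0.000901), 1.61-fold lower. For these 4 genes every co-culture array was under every PIK3CA array, as for 16.5% of all genes tested. Against a tested margin of 0.5 the FGFBP1 and FGFR2 calls were lost (adjusted p 0.0567 and 1), and those of VEGFC and PDGFA held (highest adjusted p over their alternatives 0.00622 and 0.0344).

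VEGFA arrays of the co-culture, 12.89 to 13.41, overlapped the PIK3CA arrays, 13.22 to 13.64. The difference of -0.24 had a 95% interval from -0.53 to 0.06 (limma adjusted p 0.254). About 75% of the cells in that mixture were of the line with the lower VEGFA signal. VEGFB was higher by 0.31 ± 0.12 (SE, limma adjusted p 0.0496), and its lowest co-culture array, 9.68, stood just above the highest PIK3CA array, 9.66, an order without overlap that 11.9% of all genes showed. That call was lost in 14 of 23 alternatives, among them the fit without PIK3CA culture replicate 1, 2, 3 or 4 (adjusted p 0.0629, 0.0542, 0.08 and 0.17), without co-culture replicate 2, 3 or 4 (0.0765, 0.139 and 0.135) and without HER2 culture replicate 2 or 3 (0.0509 and 0.0517). Over all alternatives its adjusted p ran from 0.0198 to 1. FGF2 (-0.23, 95% interval -0.72 to 0.26), FGFR3 (-0.19, -0.58 to 0.21) and PDGFB (-0.02, -0.45 to 0.40) did not pass, and FGFR1 differed by 0.23 without the filter (adjusted p 0.367).

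The next comparison set the co-culture beside the level that 75% HER2-mutant and 25% PIK3CA-mutant cells would give if each cell kept the signal of its single culture. VEGFA was above this blend and FGFR2 was below it, and VEGFC passed above it only with its HER2 signal taken as measured, under background. By limma, 2 of the 9 genes were higher and 1 lower than the blend, where 18.5% of all genes were higher and 22.3% lower. The median was 0.26, beside -0.05 over all genes. The blend assumes equal RNA per cell, and the share of 75% is approximate per the labels, so blends with 65% and 85% HER2 cells were formed as well.

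The expected VEGFA signal was 11.92, and the co-culture mean was 13.11 ± 0.23 (SD, n = 4). The excess of 1.19 ± 0.13 (SE, limma adjusted p 8.21e-08) is 2.29-fold, and all 4 co-culture arrays were above the expected value. It was 0.90 with 65% and 1.56 with 85% HER2 cells, past the threshold in both. For VEGFC the expected signal was 7.08 and the mean 7.62 ± 0.21, an excess of 0.54 ± 0.15 (SE, limma adjusted p 0.00706). With 65% HER2 cells the VEGFC call was lost (0.14, adjusted p 0.531), and with 85% the excess was 1.09. As the HER2 signal of VEGFC was under background, the HER2 level was also taken at background, an alternative chosen after the data were seen and without a test. The expected VEGFC signal was then 7.70 and the difference -0.08, so no excess of VEGFC can be bounded. The VEGFA excess thus held with 65% to 85% HER2 cells, and shares outside this range were not tried. It was not particular to VEGFA. Most genes lower in the HER2 line by at least 1 also lay above the blend, as the percentages further below show. The VEGFC excess depended on the cell share and on the HER2 level assumed.

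FGFBP1 (0.55, 95% interval -0.02 to 1.12, limma adjusted p 0.12) and PDGFA (0.26, 0.04 to 0.48, 0.0583) did not pass. With 85% HER2 cells both did, FGFBP1 at 1.24 (adjusted p 0.000636) and PDGFA at 0.52 (0.000313), and with 65% they were at 0.08 and 0.03. FGFBP1 also passed when HER2 culture replicate 4 was left out (0.53, adjusted p 0.0227), with the replicate number as a block (0.55, 0.0461) and with the blend formed on the log2 scale (3.40, 1.61e-10), with adjusted p up to 0.861 over its alternatives. With its HER2 level at background, the FGFBP1 difference was 0.29. PDGFA also passed when HER2 culture replicate 1 (0.28, 0.0392) or co-culture replicate 3 (0.33, 0.0328) was left out, with a filter at the array median (0.26, 0.0464) and on the log2 scale (0.56, 0.000272), with adjusted p up to 1. FGFR2 was expected at 8.63 and measured at 7.77 ± 0.21, a difference of -0.85 ± 0.13 (SE, limma adjusted p 1.47e-05), and it was at -0.83 and -0.88 with 65% and 85% HER2 cells. As the lines themselves were close in FGFR2, the assumed cell share hardly moved that value. VEGFB (0.15), FGF2 (0.26), FGFR3 (-0.07) and PDGFB (-0.07) did not pass.

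**Figure D3:**
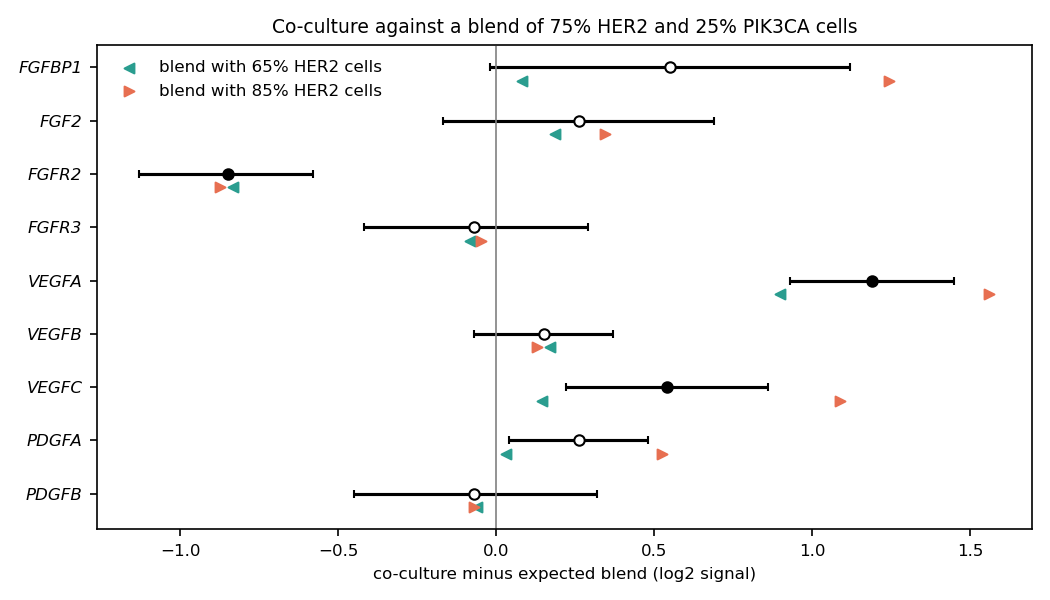
Difference between the co-culture and the expected blend in log2 signal (horizontal axis) for the 9 tested genes. Circles are the blend with 75% HER2 cells with 95% intervals from limma (filled where the adjusted p is under 0.05), and triangles are blends with 65% and 85%. VEGFA is right of 0 and FGFR2 left of 0 under each share, whereas FGFBP1, VEGFC and PDGFA come close to 0 at 65%.

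On the linear scale, the place of the co-culture between the lines can be written as a percentage, with 0% at the PIK3CA level and 100% at the HER2 level. FGFBP1 lay at 62.9% (54 to 67.8% over the 4 co-culture arrays), VEGFC at 60.7% (52.2 to 66.9%) and PDGFA at 63.5% (48.4 to 72.9%). VEGFA lay at 18% (-4.79 to 32.7%). For FGFBP1 and VEGFC the 100% end is a signal under background. With the HER2 level at background they lay at 67.5% (58 to 72.8%) and 78.3% (67.4 to 86.4%). No co-culture array of VEGFA overlapped those of the other 3 genes with either end point. On this scale the blend of 75% HER2 cells lies at 75%. The 2713 genes that differed between the lines by at least 1 had a median of 30.2%, with quartiles at 12.8% and 50.8%. The 1563 genes that were lower in the HER2 line by at least 1 had a median of 42.9%, with quartiles at 23.6% and 59.7%. Most genes of both sets thus lay nearer the PIK3CA level than the blend. Of the 1563, 80.1% lay at a smaller percentage than PDGFA and 19.8% at a smaller percentage than VEGFA. These figures are a description, without a test of the difference between genes.

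The last comparison asked which levels of the co-culture lay outside both lines. FGFR2 was the 1 gene of the 9 that did so past the threshold, below both, where 1.85% of all genes were outside in either direction and 0.847% below. All 4 FGFR2 arrays of the co-culture (7.48 to 7.99) were under all 8 arrays of the single cultures (8.27 to 8.97), as for 2.01% of all genes tested. The smaller of both differences was -0.69 ± 0.14 (SE, limma adjusted p 0.0091). The call held in all 22 alternatives run for it, with values from -0.76 to -0.59 and adjusted p from 0.00224 to 0.0475. Among these, the margin of 0.5 was only a cut on size, without a test against it. When that margin was tested, the FGFR2 call against the PIK3CA culture was lost, so the position outside both lines is not shown beyond it. ESRP1, the splicing factor that favours the epithelial form of FGFR2, was at 14.26 ± 0.11 in the HER2 cultures, 14.41 ± 0.07 in the PIK3CA cultures and 14.55 ± 0.11 in the co-cultures (SD, n = 4 each). The co-culture exceeded the HER2 culture by 0.28 ± 0.07 (SE, limma adjusted p 0.00267), and not past the threshold against the PIK3CA culture (0.14, 0.205).

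Most other genes of the FGF system were near background. Of 20 measured FGF ligand genes, FGF8 alone had a group mean above background, in the PIK3CA cultures (6.40 ± 0.04, SD, n = 4). Of the 13 tested, 1 was higher in the HER2 cultures by limma (FGF7, a keratinocyte growth factor, by 0.53, adjusted p 0.0102, near background throughout) and 0 were lower, with a median of 0.17 beside 0.05 over all genes. In both co-culture comparisons 0 of the 13 passed. On the receptor side, 1 of 6 tested genes was higher in the HER2 cultures and 0 lower (30% and 29.5% of all genes), with a median of 0.04. This was the adaptor gene FRS3, by 0.46 (adjusted p 0.0231), which differed by -0.59 between the co-culture and the HER2 culture (0.00601). The receptor gene FGFR4 was at 7.74 ± 0.14, 7.83 ± 0.22 and 7.78 ± 0.19 in the HER2, PIK3CA and co-cultures (SD, n = 4 each), and FGFRL1, a receptor without a kinase domain, at 7.15 ± 0.12, 7.28 ± 0.17 and 7.13 ± 0.22. Neither differed past the threshold in any pair of groups.

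The VEGF receptor genes FLT1, KDR and FLT4 were near background in all groups, and the co-receptor genes NRP1 and NRP2 in the HER2 cultures only. NRP1 was at 4.70 ± 0.39 in the HER2 cultures, 8.51 ± 0.21 in the PIK3CA cultures and 7.35 ± 0.23 in the co-cultures (SD, n = 4 each). Between the lines it differed by -3.81 ± 0.19 (SE, limma adjusted p 2.45e-14), NRP2 by -1.30 (3.72e-06) and PGF, a further ligand of FLT1, by -0.55 (0.0138). All 3 were near background in the HER2 cultures, and with the HER2 level at background these differences were -1.55, -0.22 and -0.19, which is the size that the signals bound. In all, 3 of 4 tested genes of this list were lower in the HER2 cultures, as were 29.5% of all genes, with a median of -0.93. Against the HER2 culture, co-culture NRP1 was higher by 2.65 and NRP2 by 1.10 (0.39 and 0.02 with the HER2 level at background), and NRP1 differed by -1.16 from the PIK3CA culture. NRP1 thus had the order of VEGFC, HER2 culture lowest and PIK3CA culture highest.

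PDGFRA and PDGFRB, the receptors of the PDGF chains, did not pass the filter and had group means of 4.06 to 4.31. Of the 2 tested genes of the PDGF list, PDGFC, a further ligand gene, differed by -2.23 ± 0.17 between the lines (SE, limma adjusted p 1.44e-10) and PDGFRL was higher by 0.54 in the HER2 cultures (0.0109). PDGFC was above background in the PIK3CA cultures only (6.92 ± 0.21, SD, n = 4), a level no higher than the background of the HER2 cultures (6.96), so no size of that difference can be bounded. Its co-culture signal differed by 1.42 from the HER2 culture and by -0.81 from the PIK3CA culture (-0.39 with the co-culture at its background).

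Heparan sulfate genes, which code for core proteins and for enzymes that build or trim heparan sulfate, were split between the lines. By limma, 7 of 18 tested passed with a higher and 9 with a lower HER2 signal, where 30% of all genes were higher and 29.5% lower. Their median was -0.16. SULF1 and SULF2, which remove sulfate groups from heparan sulfate outside the cell, were higher by 3.41 and 1.95, with SULF1 near background in the PIK3CA cultures (2.16 with that level at background), and the core protein gene SDC3 by 1.35. The syndecan genes SDC1 and SDC4 differed by -1.82 and -1.73, and HS6ST2, which adds sulfate, by -1.50. Against the HER2 culture, 9 were higher and 8 lower in the mixture, where 24.9% of all genes were higher and 26% lower. SDC4 was higher by 1.58 and SULF1 was at -1.70. Against the PIK3CA culture 3 were higher and 3 lower, where 11.1% of all genes were higher and 14.6% lower. SULF1 differed by 1.71 (0.46 at background) and GPC1 by -0.84.

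The relay from receptor tyrosine kinases to ERK was split as well. Of 13 tested genes, 6 passed with a higher and 5 with a lower HER2 signal, where 30% of all genes were higher and 29.5% lower. Their median was 0.20. The adaptor gene GAB1 and the Ras exchange factor gene SOS1 were higher by 1.31 and 1.00, and the kinase gene MAP2K1 and the adaptor gene SHC1 differed by -1.96 and -1.95. Against the HER2 culture 3 were higher and 3 lower in the mixture, where 24.9% of all genes were higher and 26% lower. SHC1 differed by 1.47 and GAB1 by -1.05. Against the PIK3CA culture 0 were higher and 4 lower, with MAP2K1 at -1.09, where 11.1% of all genes were higher and 14.6% lower.

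ERK feedback genes, which are induced by this pathway, were lower in the HER2 cultures in 12 of 12 tested, where 29.5% of all genes were lower. Their median was -3.45, beside 0.05 over all genes. Of these, 8 were near background in the HER2 cultures, so the median is no bound. With the HER2 level at background, 6 of the 8 differed by -7.77 (DUSP6) to -1.17 (ETV4), and no size can be bounded for SPRY1 and SPRY2. Against the HER2 culture 11 of 12 were higher in the mixture, where 24.9% of all genes were higher. With the HER2 level at background, ETV1 was at -0.02, ETV4 at 0.58 and DUSP6 at 6.32, and no size can be bounded for SPRY1. Against the PIK3CA culture 7 were lower and 1 higher, where 14.6% of all genes were lower and 11.1% higher. SPRY2 was near background in all groups, and SPRY1 differed by -0.33 with the co-culture at background. HIF and hypoxia genes, the group with which VEGFA is often listed, were split. Of 14 tested, 5 passed with a higher and 4 with a lower HER2 signal, where 30% of all genes were higher and 29.5% lower. Their median was 0.22, with ADM higher by 2.48 and ANGPTL4 at -4.25 (-1.53 with the HER2 level at background). Against the HER2 culture 5 were higher and 6 lower in the mixture, where 24.9% of all genes were higher and 26% lower. ADM differed by -2.37, P4HA1 and PDK1 were higher by 0.70 and 0.64, and VEGFA was higher by 2.39. Against the PIK3CA culture 1 was higher and 3 lower, where 11.1% of all genes were higher and 14.6% lower. ANGPTL4, near background outside the PIK3CA cultures, was at -3.78 (-1.96 with the co-culture at background).

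**Figure D4:**
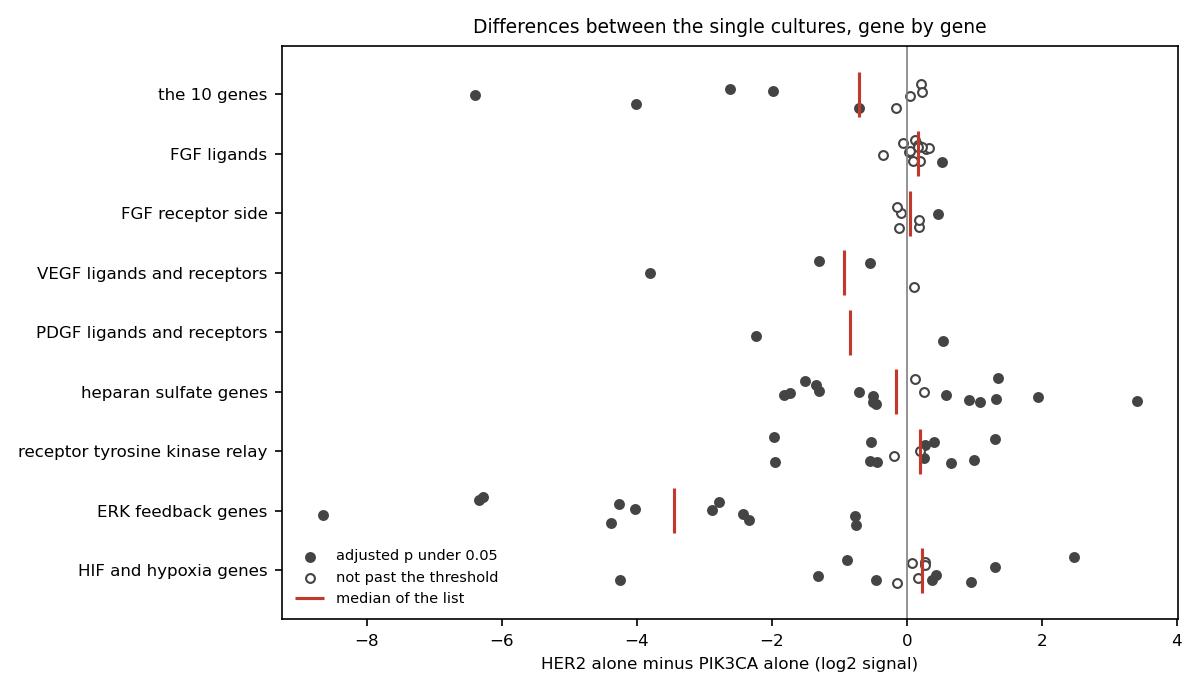
Difference between the HER2 and the PIK3CA cultures in log2 signal (horizontal axis) for the tested genes of each list (rows), with filled points at a limma adjusted p under 0.05 and a red bar at the median of the list. The ERK feedback genes all lie left of 0 with a median of -3.45, and the FGF ligands and the FGF receptor side lie close to 0.

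Across the 12 arrays the 4 secreted factors ran together, with Pearson's r of 0.89 for VEGFA with PDGFA and of 0.95 to 0.96 for the other pairs. These coefficients are descriptions. The arrays share 3 groups, so any genes with a like order of groups correlate. The genes most like FGFBP1 over the 12 arrays were NUP93, MRPL32 and THOC3 (r = 0.996, 0.995 and 0.993). For VEGFC they were SH3KBP1, TSPAN13 and TNFRSF10D (0.996, 0.996 and 0.995), for VEGFA IER3, GLA and BHLHE40 (0.995, 0.994 and 0.992), and for PDGFA MALL, RHOBTB3 and CBX3 (0.995, 0.993 and 0.990). FGFR2 was most like MGAT1, CDK9 and ETHE1 (0.959, 0.952 and 0.952), and its r with the 4 secreted factors was -0.58 to -0.27. VEGFB was most like STIM2, RPL21 and SPAG7 (0.907, 0.905 and 0.886). For FGF2, FGFR3 and PDGFB, all near background, the closest were FFAR1 (0.935), ZNF296 (0.894) and P2RX1 (0.866).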

How the data were processed

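RNA of 12 cultures (5 µg each, labelled with a whole-transcript kit per the labels' protocols) was measured on 1 array each. The authors deposited log2 signals, 1 value per probe set and array. Per the submitters' processing notes they came from the Transcriptome Analysis Console, with no version given. Background correction, summarization and normalization are not given in the sources used here. The values were used as they stand.

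Of 24351 probe sets, 17709 carried 1 gene symbol (17687 genes, the brightest probe set where a gene had several, as for 20 genes). A gene was tested if it was above the 30th percentile of the named probe sets of an array on at least 4 of 12 arrays, which left 12758. A linear model with 3 groups was fitted in limma 3.58.1 (R 4.3.3) with empirical Bayes moderation and a trend with signal, two-sided, with Benjamini-Hochberg adjustment over all 12758 genes and a threshold of 0.05. Pairwise contrasts, the blend (linear scale, delta-method error) and the co-culture outside both lines (the larger p of both contrasts) were read from that fit, which was tested on simulated data. The background level came from 612 negative control probe sets.

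All 10 genes are named. From the other lists, the rule allowed up to 3 genes a direction with the largest difference past the threshold and no overlap of arrays. Fewer are printed, and others (FGFR4, FGFRL1, FGF8, PGF, PDGFRL, the VEGF and PDGF receptor genes) were chosen after their values were seen. For likeness, the 3 genes of highest Pearson correlation are named for 6 genes and the closest for 3. Genes and lists were chosen with earlier results of these data known. The alternatives tried are those of the closing section. Values "at background", added after the data were seen and without a test, raise arrays under background to it in a group near background. Some other listed genes were not analysed here. Array number, 4 a group, limits the precision, and 0 arrays were unassigned.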

Additional observations from a re-analysis of the deposited data

Results flagged for a closer look

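In 2 of the 30 sets of 4 arrays (10 genes in 3 groups), 1 array stood far from the other 3 by Dixon's test, where chance gives about 1 in 20. Both were PIK3CA culture replicate 3, with VEGFA at 13.64 against a next value of 13.28, and FGF2 at 4.68 against a next value of 4.95. Without that array VEGFA differed by -2.52 between the lines (limma adjusted p 2.35e-12) and by 1.26 from the blend (7.09e-08). FGF2 differed by -0.77 between the lines (0.0142) without it.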

How the results depend on the processing

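The counts of genes past the threshold moved little under most alternatives. The alternatives tested 9 genes, except for 10 without the low-signal filter and 6 with a filter at the array median. Of the genes tested, 4 to 6 passed between the lines and 5 to 6 in the co-culture against the HER2 culture. Against the PIK3CA culture 2 to 5 passed, against the blend 2 to 5 and outside both 1. The lowest count against the PIK3CA culture, 2, came with the margin of 0.5, and the highest against the blend, 5, with 85% HER2 cells and with a blend on the log2 scale. Leaving out 1 array each gave 4 to 5, 5 to 6, 4 to 5, 3 to 4 and 1. Of the values of single genes, 869 kept direction and side of the threshold, 19 lost the threshold, 13 gained it and 19 reversed. These reversals were all in FGFR3 and PDGFB, near background in each group. PDGFB between the lines was at -0.0027 after quantile normalization and -0.049 to 0.16 with 1 array left out. With 1 array left out, PDGFB ran from -0.21 to 0.13 against the HER2 culture, -0.16 to 0.18 against the PIK3CA culture, -0.20 to 0.14 against the blend and -0.16 to 0.13 outside both. FGFR3 ran from -0.18 to 0.15 against the HER2 culture and from -0.18 to 0.10 against the blend. The cause was not tested. With the HER2 level at background, an alternative chosen after the data were seen, VEGFC against the blend reversed to -0.078 and FGFBP1 moved to 0.29. The labels name no pairing of the arrays. Deviations of same-numbered arrays correlated at -0.03 to 0.06 in 12 pairs, so no shared effect of the replicate number was seen. With the replicate number as a block the counts were 5, 5, 4, 4 and 1. Over all genes the counts with the tested margin of 0.5 were 3524 (7587 without it), 2269 (6503) and 439 (3273) in the pairwise comparisons. For the blend and for outside both, the margin was a cut on size without a test, and left 2859 (5207) against the blend. Outside both, the count was 146 without the trend and 154 without co-culture replicate 3 (236 otherwise). Scaling moved the median of all genes by at most 0.02. Signal near background limits FGF2, FGFR1, FGFR3 and PDGFB.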

Other observations

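Against the blend of 75% HER2-mutant and 25% PIK3CA-mutant cells, the heparan sulfate genes were split in direction. By limma, 6 of 18 tested were higher and 8 lower than the blend, where 18.5% of all genes were higher and 22.3% lower. Their median was -0.05, the same as over all genes. SULF1 and SULF2, which trim heparan sulfate, were at -1.33 (adjusted p 3.48e-06; -1.38 with the PIK3CA level of SULF1 at background) and -0.99 (1.46e-08). HS6ST2 and SDC4, a sulfotransferase and a core protein, were at 0.95 (3.94e-07) and 0.92 (2.94e-09), and HS6ST1 and SDC3, also a sulfotransferase and a core protein, at -0.67 (0.00677) and -0.61 (6.75e-05). Of 14 HIF and hypoxia genes, 3 were higher and 7 lower than the blend, where 18.5% of all genes were higher and 22.3% lower. The 3 were PDK1 (0.36), P4HA1 (0.25) and HIF1A (0.21). Among the lower, ADM differed by -2.04 and ANGPTL4 by -1.99 (-0.99 with the HER2 and co-culture levels at background). VEGFA was above the blend by 1.19, and a link to these genes was not tested. NRP1 was at 0.56 (adjusted p 0.0115), but at -0.18 with its HER2 level at background. These genes were chosen after their values were seen.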
